A study of Rattus norvegicus with 12 samples.

Results

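miR-320-3p (rno-miR-320-3p) was described here together with 3 other mature miRNAs of hairpins that are known to mature without Drosha: miR-320-5p, miR-484 and miR-877. They are every entry of the deposited tables that carries the name miR-320, miR-484 or miR-877 in any arm, 4 of 649 miRNAs in all. miR-320-3p was chosen by its values in these libraries, lower in the model and higher with the formula, so its own values below are a description with no test. The other 3 were included for how they are made. The question was whether they follow the course of miR-320-3p.

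Small RNA of rat gastric mucosa was sequenced in 12 libraries, 4 in each of 3 groups. The normal group is labelled as untreated. The model group had chronic atrophic gastritis, induced by 24 weeks of MNNG (N-methyl-N'-nitro-N-nitrosoguanidine, an alkylating mutagen) at 180 µg/ml in drinking water, 2% sodium salicylate by gavage, and cycles of 2 days of food and 1 day of fasting. The XLHZ group was exposed likewise and also received a herbal preparation, Xianglianhuazhuo formula, for 60 days, so MNNG is common to the model and XLHZ libraries. The labels name no strain or age and do not say that each library is a rat of its own, so a p-value here reflects the spread from library to library, which may be technical.

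Most animal miRNAs are cut from a long primary transcript by Drosha with its partner DGCR8, and the released hairpin is then cut by Dicer. A few hairpins skip the Drosha step. miR-320 arises from a hairpin that is set directly by the start and end of its own short capped transcript, and the capped 5′ end favours use of the 3′ arm. miR-484 is also known as a hairpin made at a transcription start, next to Nde1, a gene of mitotic spindle and neuronal migration. miR-877 is a mirtron, a short intron of Abcf1, a translation factor gene, that folds into a hairpin after splicing. In epithelial and other tissues miR-320 is best known for limiting glycolytic enzymes and growth signalling, and miR-484 for mitochondrial dynamics.

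The sequences below are shown because a miRNA's seed decides its targets, and members grouped by how they are made need not share it. They are RefSeq entries on build GRCr8, which held 2 of the 4 members, miR-484 and miR-877. The seeds of miR-320-3p and miR-320-5p were therefore not compared. The count tables name no build. Capitals mark the seed, bases 2 to 8. The other 2 lines are the most abundant arms of miR-1839 and miR-664, which are described below as further miRNAs made without Drosha.
miR-484: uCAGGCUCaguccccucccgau
miR-877: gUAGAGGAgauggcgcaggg
miR-1839-5p: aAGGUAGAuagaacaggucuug
miR-664-3p: uAUUCAUUuacuccccagccua
miR-484 lies at chr10:1394915-1394936 on the minus strand, outside the annotated Nde1 gene. miR-877 lies at chr20:2816284-2816303 on the plus strand, within Abcf1. No 2 of these 4 seeds are alike. The seed of miR-484 is shared in RefSeq by miR-344a-5p and miR-344-5p, which are not among the counted miRNAs, and that of miR-877 by no other of 693 rat mature miRNAs. miR-484 had a GC content of 63.6% and miR-877 one of 65%, against a median of 47.8% over those 693, of which 11.3% reached the GC content of miR-484 or more.

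The hairpin of miR-877 begins with GU and ends with AG, the bases of intron splice signals, in capitals here. The same holds for miR-1224, another known mirtron. Of 419 rat hairpins in the table, read on the strand of the miRNA, 4 (0.955%) begin and end in this way.
Mir877: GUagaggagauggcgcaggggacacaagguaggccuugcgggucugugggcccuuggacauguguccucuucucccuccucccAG
Mir1224: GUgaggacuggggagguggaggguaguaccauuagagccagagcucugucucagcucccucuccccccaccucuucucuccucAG
The mature miR-877 spans bases 1 to 20 of its hairpin, and mature miR-1224 bases 1 to 21, so that both start at the first base of the hairpin. Whether the ends of these hairpins coincide with intron boundaries was not checked.

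The libraries held 9094962 to 11556058 counts each. Levels are CPM (counts over the library total, on a common scale) with trimmed-mean (TMM) factors, as mean ± SD of n = 4 libraries. The label of the tissue was compared with marker miRNAs. All 6 epithelial markers were present in each group, summing to 82598 to 99649 CPM in normal, 66686 to 96249 in model and 83871 to 101342 in XLHZ libraries, led by miR-200a-3p, which maintains epithelial identity. Smooth muscle markers (4 mature forms from miR-143 and miR-145) were present at 133246 to 219379 CPM in normal libraries, above the epithelial ones in every normal library. They reached 403505 and 356150 CPM in model libraries 2 and 3, against 215562 and 145151 in model libraries 1 and 4. In such bulk samples fewer cells of a type and less RNA per cell cannot be told apart.

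The 4 members differed widely in level. miR-320-3p had 25939 counts over the 12 libraries and a mean of 200 CPM, and miR-484 had 4893 counts and 37.8 CPM. The passenger arm miR-320-5p had 18 counts in all, in 8 libraries, and miR-877 had 12, in 9 libraries. The last pair did not pass the filter on low counts in any comparison (edgeR's filterByExpr with a minimum count of 10), so 2 of 4 members could be tested.

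miR-320-3p, the arm of its hairpin that is loaded and acts on targets, was counted 1065, 1908, 1882 and 2914 times in normal libraries 1 to 4. That is 106, 169, 167 and 245 CPM. Model libraries 1 to 4 held 917, 871, 576 and 1066 counts, or 91.7, 95.2, 61.6 and 90.1 CPM. The 4 model libraries were all below the 4 normal ones, with normal library 1 nearest to them and 3 of the model libraries close together. XLHZ libraries 1 to 4 held 2791, 5614, 2368 and 3967 counts, or 270, 544, 220 and 336 CPM. All XLHZ libraries stood above all model libraries, and XLHZ library 2 stood highest of the 12. XLHZ and normal libraries overlapped, since XLHZ library 3 lay below normal library 4.

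The order of the group means was therefore XLHZ, normal, model, at 343 ± 142, 172 ± 56.7 and 84.7 ± 15.5 CPM. As a description, the log2 fold change was -1.02 (SE 0.27) in model against normal, 2.00 (SE 0.31) in XLHZ against model and 0.97 (SE 0.33) in XLHZ against normal. Both of the first 2 values use the same model libraries, so a low level there enters the fall and the rise alike. Non-overlap downwards was seen for 1.99% of 403 miRNAs in model against normal, and upwards for 0.998% of 401 in XLHZ against model; miR-320-3p is among both by its selection. Ranked within each library, which needs no scaling, miR-320-3p stood at places 113 to 142 in normal, 148 to 177 in model and 90 to 120 in XLHZ libraries.

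**Figure D1:**
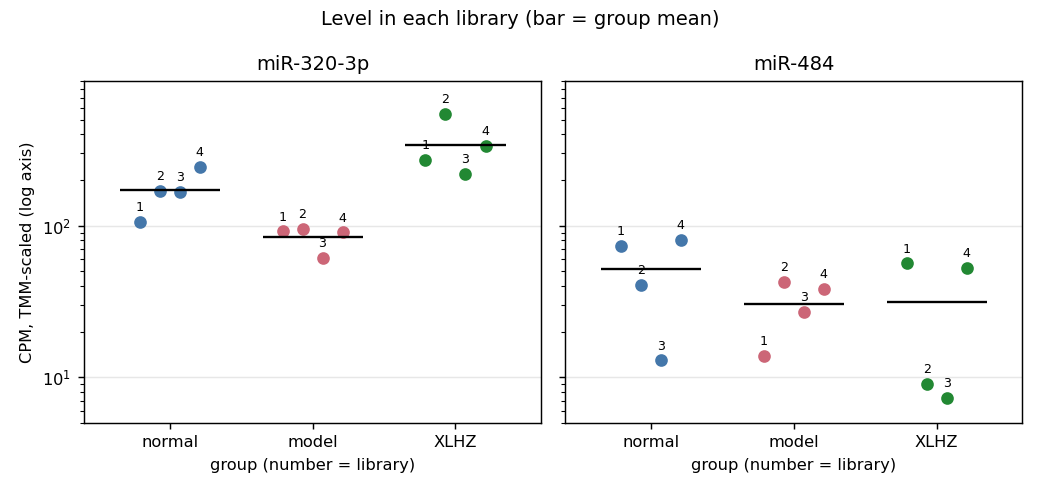
TMM-scaled CPM on a log axis of miR-320-3p (left) and miR-484 (right) in each of the 12 libraries, numbered by replicate, with bars at the group means. miR-320-3p is lowest in the model (61.6 to 95.2 CPM) and highest with the formula (220 to 544 CPM), while miR-484 spans 7.26 to 56.3 CPM inside the XLHZ group alone.

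Marker levels of other cell types are given beside these values, and their part in the level of miR-320-3p was not tested. In normal libraries 1 to 4 smooth muscle sums were 219379, 211138, 162485 and 133246 CPM, beside 106, 169, 167 and 245 CPM of miR-320-3p. In model libraries 1 to 4 they were 215562, 403505, 356150 and 145151 CPM, beside 91.7, 95.2, 61.6 and 90.1 CPM. In XLHZ libraries 1 to 4 they were 97611, 277213, 199151 and 138490 CPM, beside 270, 544, 220 and 336 CPM. Model libraries 2 and 3 had the highest smooth muscle sums. With model libraries 2 and 3 left out together, the log2 fold change of miR-320-3p was -0.89 against normal and 1.86 for XLHZ against model. Erythroid markers (miR-144, miR-451 and miR-486, 4 of 4 present, none at 0 in any group) summed to 44.6 to 160 CPM in normal, 33.8 to 133 in model and 92.7 to 206 in XLHZ libraries. Normal library 1, lowest of its group in miR-320-3p, had 9740 CPM of squamous markers (miR-205 and miR-203) against 4665 to 5073 in the other normal libraries.

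The 2 arms of the miR-320 hairpin were very unequal. miR-320-5p was counted 3, 1, 2 and 6 times in normal libraries 1 to 4, 1, 0, 0 and 2 times in model libraries and 2, 0, 1 and 0 times in XLHZ libraries. It made up 0.154% of the counts of both arms in normal (exact Clopper-Pearson 95% interval 0.0797 to 0.269%), 0.0874% in model (0.018 to 0.255%) and 0.0203% in XLHZ libraries (0.0042 to 0.0595%). Summed counts of the 5′ arm were 12 in normal (exact Poisson 95% interval 6.2 to 21), 3 in model (0.619 to 8.77) and 3 in XLHZ (0.619 to 8.77). So the 5′ arm had the same summed count in model and XLHZ libraries, where the 3′ arm had 3430 and 14740. The intervals of the share in normal and XLHZ libraries do not overlap, while that of the model libraries overlaps both. These intervals cover counting error only, not the spread between libraries, and the 3′ arm in the share was chosen for its change, so the difference in share is a description without a test.

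miR-484 had a lower mean in the model, as miR-320-3p did, but no clear rise with the formula, and its groups overlapped. It was counted 734, 458, 145 and 956 times in normal libraries 1 to 4, or 73.3, 40.6, 12.9 and 80.3 CPM. Normal library 3 was far below the other 3. Model libraries 1 to 4 held 138, 388, 252 and 450 counts, or 13.8, 42.4, 27 and 38 CPM, which lie inside the normal range. XLHZ libraries 1 to 4 held 582, 93, 78 and 619 counts, or 56.3, 9.01, 7.26 and 52.5 CPM. The XLHZ group thus fell into a high pair (libraries 1 and 4) and a low pair (libraries 2 and 3), with all 4 model libraries between them.

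The group means of miR-484 were 51.8 ± 31.2 CPM in normal, 30.3 ± 12.8 in model and 31.3 ± 26.7 in XLHZ libraries. In edgeR's quasi-likelihood test with Benjamini-Hochberg adjustment over all miRNAs, its log2 fold change in model against normal was -0.77 (SE 0.53, 95% interval -1.96 to 0.41, adjusted p = 0.662). That interval covers both no change and a fall as large as that of miR-320-3p. In XLHZ against model the value was 0.017 (SE 0.67, -1.48 to 1.52, adjusted p = 0.993 in the same edgeR test). This interval also covers no change, but it ends below the 2.00 of miR-320-3p. In XLHZ against normal the value was -0.75 (SE 0.75, -2.45 to 0.94, adjusted p = 0.73 in edgeR), where miR-320-3p had the opposite sign. Leaving out single libraries moved this last value between -1.18 (without XLHZ library 1) and -0.40 (without XLHZ library 3). The difference between the 2 miRNAs was not tested, because miR-320-3p had been chosen for its change.

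Of the members other than miR-320-3p, the 1 that could be tested passed in 0 of the 3 comparisons in edgeR, and in 0 at an unadjusted p under 0.05 or in DESeq2. Over all miRNAs, 0.248% of 403 passed in model against normal, 0.249% of 401 in XLHZ against model and 1.5% of 401 in XLHZ against normal. With so few calls in the background, the absence of a call says little about miR-484, and its intervals carry the information.

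The spread of miR-484 between libraries of the same group was among the widest measured. Its within-group SD of log2(CPM + 1), pooled over the 3 groups, was 1.17, against a median of 0.31 over the 282 miRNAs with a mean above 10 CPM. It ranked 5th from the widest, after miR-122-5p, miR-184, miR-551b-3p and miR-344a-3p (1.93, 1.88, 1.64 and 1.18). By group its SD was 1.17 in normal, 0.70 in model and 1.51 in XLHZ libraries. Counting error was small beside this: the 78 counts of XLHZ library 3 have an exact Poisson 95% interval of 61.7 to 97.3, and the 619 counts of XLHZ library 4 one of 571 to 670. For miR-320-3p the pooled SD was 0.46, rank 72 of 282, with 0.49 in normal, 0.29 in model and 0.56 in XLHZ libraries.

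**Figure D2:**
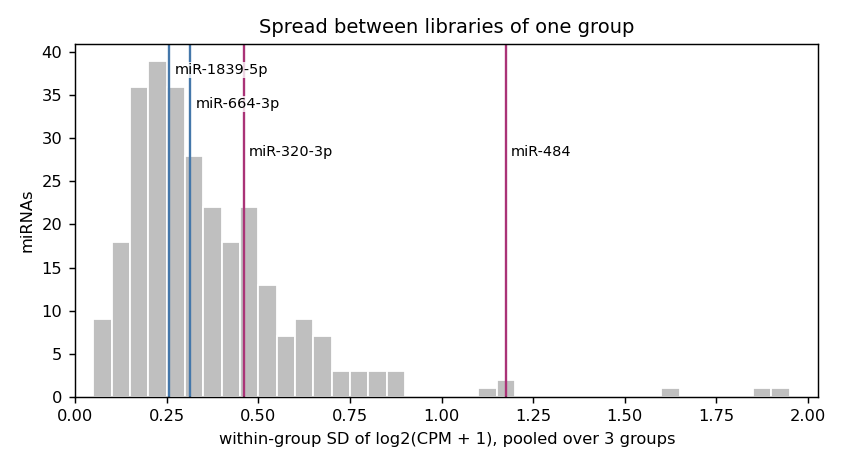
Histogram of the within-group SD of log2(CPM + 1), pooled over the 3 groups, for the 282 miRNAs with a mean above 10 CPM. Lines mark miR-484 at 1.17, far to the right of most miRNAs, miR-320-3p at 0.46, miR-664-3p at 0.31 and miR-1839-5p at 0.26.

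miR-877, the mirtron, was close to the limit of counting. It had 0, 1, 1 and 1 counts in normal libraries 1 to 4, 0, 0, 1 and 3 in model libraries, and 1, 1, 2 and 1 in XLHZ libraries. The sums of 3, 4 and 5 counts have exact Poisson 95% intervals of 0.619 to 8.77, 1.09 to 10.2 and 1.62 to 11.7, which overlap. Whether it changed was not detectable at this depth.

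Further miRNAs known or reported to arise without Drosha were taken as a list: mirtrons and related hairpins (such as miR-702, miR-1224 and miR-668) and miRNAs from small nucleolar RNAs (miR-664 and miR-1839). The tables held 10 mature forms of it, of which 5 were abundant enough for the test: miR-1839-5p, miR-1839-3p, miR-664-3p, miR-664-2-5p and miR-702-3p. The miR-1839 forms are arms of the same hairpin, and so are the miR-664 forms, so the 5 are not independent of each other. In edgeR 0 of these 5 passed in model against normal, in XLHZ against model or in XLHZ against normal, and DESeq2 also called 0. At an unadjusted p under 0.05 the numbers were 1, 0 and 0, the 1 being miR-664-2-5p, where 7.2%, 4.24% and 8.73% of all miRNAs had such a p. In model against normal, 4 of 5 had a negative log2 fold change, with a median of -0.24, beside 205 of 403 negative and a median of -0.0072 over all miRNAs tested. In XLHZ against model, 4 of 5 were positive, with a median of 0.36, beside 205 of 401 and a median of 0.0069. In both of these comparisons the form with the other sign was miR-702-3p, so the shared sign came from the arms of miR-1839 and miR-664 alone. In XLHZ against normal, 2 were positive and 3 negative (median -0.055, beside -0.004). For none of the 5 did the 4 libraries of 1 group lie apart from the 4 of another, a pattern that 3.47%, 1.25% and 6.23% of all miRNAs showed in the 3 comparisons.

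The most abundant of the list was miR-1839-5p, which is reported to come from a small nucleolar type of RNA. Its level was 286 ± 13.9 CPM in normal, 242 ± 61.5 in model and 316 ± 32.7 in XLHZ libraries. Model libraries 3 and 2 were lowest, at 155 and 245 CPM, and the groups overlapped. The log2 fold change was -0.24 in model against normal (SE 0.21, 95% interval -0.72 to 0.24, edgeR adjusted p = 0.783). In XLHZ against model it was 0.36 (SE 0.22, -0.13 to 0.85, edgeR adjusted p = 0.725). Both intervals include no change, and neither reaches the value of miR-320-3p, -1.02 or 2.00, which was chosen for its change. Both fold changes depended on model library 3, the lowest, whose removal was bound to shrink the 2 differences. Without it they were -0.024 and 0.16, and with model libraries 2 and 3 left out together 0.025 and 0.098. Without model library 2 alone they stayed at -0.24 and 0.36.

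miR-664-3p, likewise reported to come from such an RNA, had 78.3 ± 19.3, 64.8 ± 16.1 and 76.4 ± 11.1 CPM in normal, model and XLHZ libraries. Its log2 fold change was -0.27 in model against normal (SE 0.25, 95% interval -0.83 to 0.28, edgeR adjusted p = 0.783). In XLHZ against model it was 0.22 (SE 0.23, -0.29 to 0.72, edgeR adjusted p = 0.822). Here too the intervals include no change and do not reach -1.02 or 2.00. Without model library 3 the fold changes were -0.095 and 0.057, and with model libraries 2 and 3 left out together -0.24 and 0.18. The other arm, miR-664-2-5p, was nearer in size to miR-320-3p, at a far lower level: 2.68 ± 0.784, 1.37 ± 0.53 and 2.18 ± 0.705 CPM, with log2 fold changes of -0.96 (SE 0.36, edgeR adjusted p = 0.601) and 0.65 (SE 0.36, edgeR adjusted p = 0.725). It had 7 to 41 counts per library, and neither value passed. Its 95% interval in model against normal, -1.78 to -0.15, included the -1.02 of miR-320-3p. That in XLHZ against model, -0.16 to 1.46, ended below 2.00. The other arm of miR-1839, miR-1839-3p, measured 2.13 ± 0.509, 1.95 ± 0.383 and 2.53 ± 0.824 CPM. The mirtron arm miR-702-3p measured 1.59 ± 0.737, 1.75 ± 0.615 and 1.57 ± 0.533 CPM, with log2 fold changes of 0.12 and -0.17 (edgeR adjusted p = 0.937 and 0.935).

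**Figure D3:**
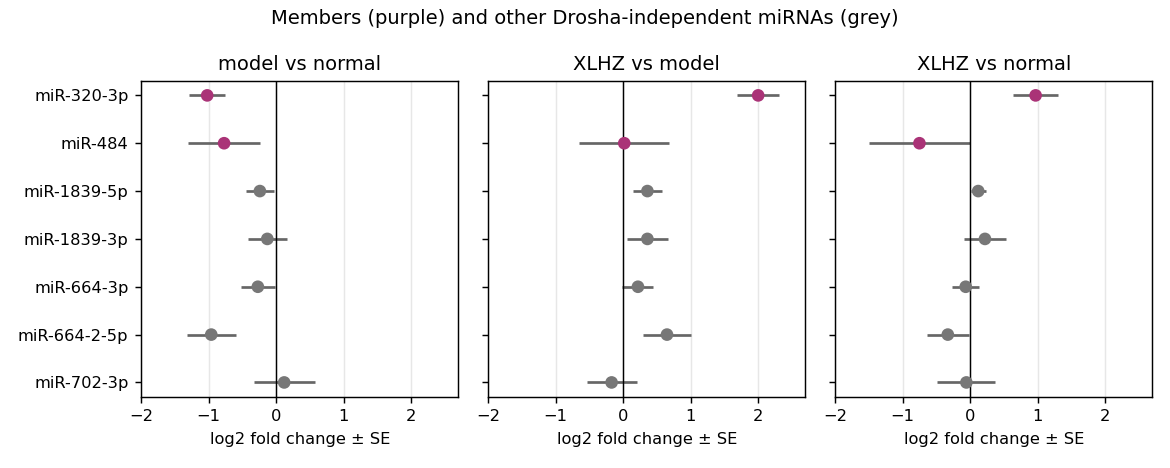
Log2 fold change with its standard error of the 2 members (purple) and 5 listed miRNAs (grey) that could be tested, in the 3 comparisons. miR-320-3p lies at -1.02, 2.00 and 0.97, while miR-484 lies at -0.77, 0.017 and -0.75 with wider bars and the 5 others lie between -0.96 and 0.65.

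Ratios of raw counts inside a library do not depend on any scaling between libraries. Against miR-484, miR-320-3p was 1.45 to 13 times as abundant in normal, 2.24 to 6.64 in model and 4.8 to 60.4 in XLHZ libraries, and neighbouring groups overlapped. The highest ratios were those of XLHZ libraries 2 and 3 (60.4 and 30.4), in which miR-484 was lowest. Against miR-1839-5p the ratio was 0.384 to 0.821 in normal, 0.317 to 0.398 in model and 0.731 to 1.94 in XLHZ libraries. Against miR-664-3p it was 1.56 to 2.92, 1.16 to 1.61 and 2.84 to 7.53. On both of these scales all XLHZ libraries stood above all model libraries, as they did in CPM. Normal and model libraries, which were apart in CPM, overlapped slightly in both ratios. In the ratio to miR-1839-5p normal library 1 was the single normal library inside the model range. These ratios carry no test, since miR-320-3p is in each of them.

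**Figure D4:**
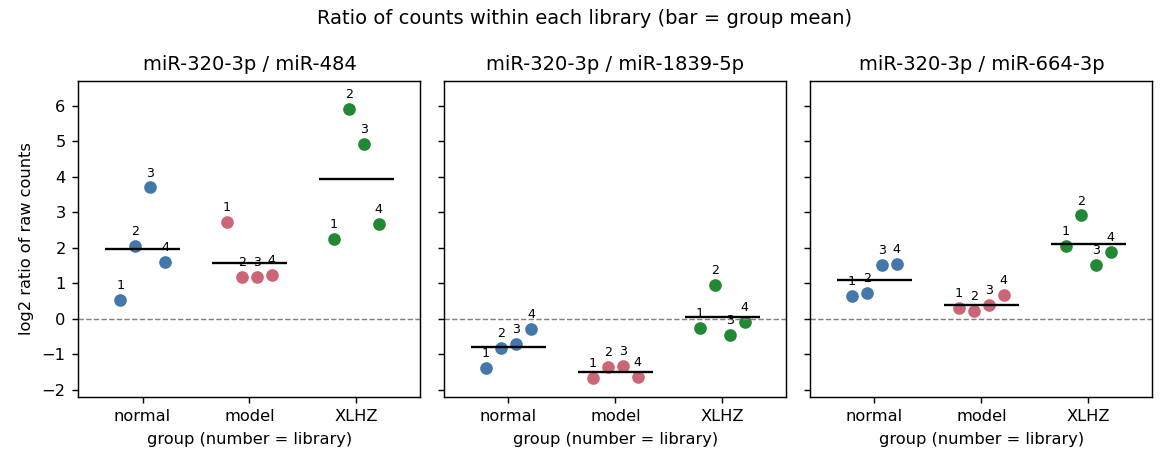
Log2 ratio of the raw count of miR-320-3p to that of miR-484, miR-1839-5p or miR-664-3p in each library, numbered by replicate, with bars at the group means. The XLHZ libraries lie above the model libraries in the right-hand panels, whereas in the left-hand panel XLHZ libraries 1 and 4 lie just below model library 1.

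The course of miR-320-3p over the 12 libraries was compared with that of the 281 other miRNAs with a mean above 10 CPM, among them miR-484 but not miR-320-5p or miR-877, which lie below that level. Likeness was the mean absolute difference between 2 profiles of log2(CPM + 1), each centred and divided by its SD, over the same 12 libraries and the same scaling. The nearest were miR-221-3p (0.56 SD), known for restraining the cell cycle inhibitor p27, then miR-1839-5p (0.59), miR-378a-3p (0.59), from a gene of mitochondrial metabolism, miR-340-3p (0.63) and miR-30b-5p (0.64). miR-664-3p ranked 39 (0.78) and miR-484 ranked 179 (1.13). The nearest ones moved far less in size. From its lowest to its highest library miR-320-3p differed 8.83-fold, miR-221-3p 2.1-fold and miR-1839-5p 2.3-fold, and all 3 were lowest in model library 3. miR-221-3p measured 1427 ± 162 CPM in normal, 1294 ± 306 in model and 1683 ± 257 in XLHZ libraries. miR-484 differed 11.1-fold, from XLHZ library 3 to normal library 4.

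**Figure D5:**
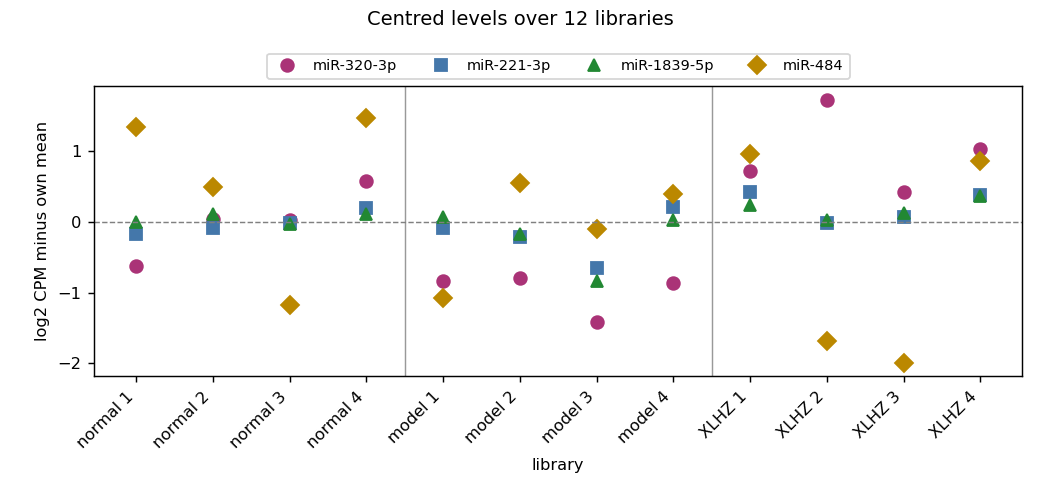
Log2 CPM minus the miRNA's own mean over the 12 libraries, for miR-320-3p, its nearest profiles miR-221-3p and miR-1839-5p, and miR-484. miR-320-3p is below its mean in the 4 model libraries and above it in the 4 XLHZ libraries with a larger amplitude than miR-221-3p and miR-1839-5p, while miR-484 changes sign within each group.

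miR-451-5p gives the contrast of the other route, since it is cut by Drosha and then matured by the Argonaute protein Ago2 without Dicer. It is an erythroid miRNA and measured 12.9 ± 6.18 CPM in normal, 16.4 ± 9.88 in model and 27.8 ± 8.51 in XLHZ libraries. Its log2 fold changes were 0.34 in model against normal, 0.73 in XLHZ against model and 1.07 in XLHZ against normal (edgeR adjusted p = 0.844, 0.725 and 0.449), so it did not pass in any of them. In model against normal its sign was opposite to that of miR-320-3p. In the other comparisons the sign was the same, and in XLHZ against normal the size was near that of miR-320-3p (0.97).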

How the data were processed

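The authors deposited 2 tables, normal with model and model with XLHZ libraries, with raw counts for every mature miRNA and with CPM columns, per the file headers. The deposited CPM equals count over column total (largest difference 5.0e-05) and was used for that check only. Libraries were made with a QIAseq kit from RNA with integrity numbers above 7.0, per the labels' protocols. Per the submitters' processing notes, Bowtie and DESeq were used, with no version. The build, the counting rule, and whether reads or molecules were counted, are not stated there. Intervals from counts cover counting error only.

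The tables held 639 and 632 miRNAs, 622 of them shared. Model counts were identical for 621 of these, and the exception, miR-20b-3p, was left out, giving 648 joined. The 17 and 10 miRNAs of a single table had at most 3 counts and were taken as 0 elsewhere. All pairs of libraries within a group differed beyond sampling noise (lowest chi-square over its degrees of freedom 192). Groups come from sample titles.

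Each comparison was fitted on its 8 libraries with edgeR 4.0.16 in R 4.3.3 (TMM factors, glmQLFit, glmQLFTest, and filterByExpr at a minimum count of 10), with Benjamini-Hochberg adjustment over all miRNAs tested and a threshold of 0.05. SE is the log2 fold change over the square root of F, and 95% intervals use the t quantile of the fit. CPM levels use TMM over 12 libraries. Named miRNAs are the members, the 4 most abundant of the list, the 5 nearest profiles, miR-451, and the top marker of each cell type list. Others (miR-702-3p, miR-1224, miR-668 and those with a wider spread than miR-484) were named after their values were seen. The members, lists and rules were chosen with earlier results of these data known. Alternatives were RLE and upper-quartile factors, library totals, library sizes without the 5 most abundant miRNAs, no filter, DESeq2 1.42.0, a filter of 50 counts or more in 4 libraries, all 12 libraries in 1 fit, a replicate block, each library left out, and model libraries 2 and 3 left out. The procedure was also run on simulated counts, in which far more miRNAs were set to change than were called here, so no result above rests on that run.

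Leukocyte markers summed to 3885 to 4841 CPM in normal, 2645 to 5424 in model and 3518 to 6512 in XLHZ libraries, and endothelial ones to 22906 to 24246, 18191 to 25936 and 22162 to 26834. Squamous markers summed to 3638 to 4698 CPM in model and 4028 to 5874 in XLHZ libraries. The labels give no batch.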

Additional observations from a re-analysis of the deposited data

Results flagged for a closer look

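miR-320-3p in model library 3 lay far below the other model libraries. It was 61.6 CPM against 90.1 to 95.2, a gap that takes 0.848 of the range of the group, above Dixon's 95% critical value for a group of this size. With 12 groups of 4 libraries examined in this way, chance alone flags about 1 in 20. Without this library the log2 fold change of miR-320-3p was -0.85 in model against normal and 1.84 in XLHZ against model. miR-1839-5p, miR-664-3p and miR-664-2-5p were also lowest in this library, at 155, 47 and 0.749 CPM, while miR-1839-3p and miR-702-3p were not.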

How the results depend on the processing

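The value of miR-320-3p kept its sign and moved by less than the spread between libraries under every alternative tried. Without each library in turn it ranged from -1.19 to -0.77 in model against normal, 1.68 to 2.15 in XLHZ against model and 0.63 (without XLHZ library 2) to 1.20 in XLHZ against normal. In model against normal and XLHZ against model, miR-320-3p was chosen for this sign and its libraries did not overlap. Leaving libraries out could therefore hardly reverse it there, and the kept sign is no support for the change. The counts of other members and of listed miRNAs that passed were 0 under all alternatives. Fold changes were recomputed for miR-484 and the 4 most abundant listed miRNAs, but not for miR-702-3p, the other listed one that was tested. None of the recomputed values passed, and 247 kept their sign while 12 changed it. For miR-484 in XLHZ against model these were -0.0004 with RLE factors, -0.00074 with DESeq2, -0.45 with the replicate block, and with single libraries left out a range of -0.43 to 0.34 (-0.23 and -0.075 without model library 1 or 3, -0.43 and -0.36 without XLHZ library 1 or 4). For miR-664-3p in XLHZ against normal they were 0.00036 with upper-quartile factors, 0.092 without normal library 2 and 0.026 without XLHZ library 1, in a range of -0.16 to 0.092 without single libraries. With model libraries 2 and 3 left out, miR-1839-5p and miR-1839-3p had 0.025 and 0.019 in model against normal. For miR-484 in model against normal the range without single libraries was -1.04 to -0.44, and in XLHZ against normal -1.18 to -0.40.

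The replicate numbers showed no steady pairing of the libraries: same-numbered libraries had correlations of deviations between -0.44 and 0.52. The highest were 0.52 and 0.40 for replicates 2 and 3 in XLHZ against model, and 0.40 for replicate 2 in model against normal. A pairing of some libraries is therefore not excluded. With a replicate block, miR-320-3p had log2 fold changes of -0.99, 1.93 and 0.94 in the 3 comparisons, 0 other members passed, and miR-484 had -0.59 in model against normal and -0.45 in XLHZ against model. On library totals the median of all miRNAs moved to -0.12 in model against normal and to 0.17 in XLHZ against model, where miR-320-3p had -1.14 and 2.13. Depth limits miR-320-5p and miR-877, whose 0 to 6 counts per library were too few for the test across libraries.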
